A study of Drosophila melanogaster with 3 samples.

Results

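Among 3816 thresholded peaks of the protein CG6765 in Drosophila melanogaster embryos, those kept by the authors for reproducibility, 330 had their summit outside every annotated gene and more than 500 bp from every annotated start site of transcription. They were 8.65% of the thresholded peaks (Wilson 95% interval 7.80% to 9.58%, counting only). The choice used position alone, on the dm6 assembly with Ensembl gene models, transposable elements left out. None of the 330 came to lie within 500 bp of a start site in the RefSeq annotation of the same assembly, which was checked as a second source (0 of 330). The remaining thresholded peaks were 2164 at start sites and 1322 within genes. The peaks were set beside 4679 intergenic candidates, chosen by the same rule from the pooled list of 30000, that passed no threshold and overlapped no thresholded peak. A further 80 intergenic candidates overlapped a thresholded peak and were left out. Of all 5089 intergenic candidates away from start sites, 6.48% passed the threshold, against 12.7% of all pooled candidates.

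The study measured chromatin recovered with CG6765 by chromatin immunoprecipitation and sequencing (ChIP-seq) in 3 biological replicates that form a single group. The embryos came from the strain CG6765-GFP, a transgenic line in which CG6765 carries eGFP at its C terminus. They were collected at 0 to 24 h of age as whole organisms of mixed sex, and all 3 samples come from the same line. The description names an antibody against GFP while the antibody label gives CG6765, and a control experiment that the labels name is not analysed here. A 0 to 24 h collection holds all embryonic stages and tissues together, so a peak in few cells and a weak peak in many cannot be told apart. The values are the authors' peak signals, which have no stated unit and order the peaks within a list. The lists carry no read numbers, and the depth is unknown. All p-values rest on differences between classes of peaks, taken within each of these 3 replicates. An exact sign-flip test over 3 replicates cannot fall below p = 0.25.

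CG6765 encodes a protein with a BTB domain, which lets such proteins pair with each other, and zinc fingers, which bind DNA. In flies, DNA between genes holds enhancers, which can act on a start site at a distance, as well as silencers and insulators. A ChIP-seq peak shows where a protein was recovered on chromatin and does not show which gene, if any, it acts on. The genes named below are those that flank a peak.

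Several of the strongest intergenic peaks shared a short word. Among the 25 members of highest signal, 4 held CGGAANTAG on either strand, and these 4 are given first. Of the 25, 8 sequences are printed in all, and the peaks beside Aldh-III, Su(z)2 and blw, not printed, are stronger than the last of these and held no such word. The word was noticed in these sequences after their values were known and is a description. These 4 sequences reach 50 bases to either side of the summit on the plus strand of dm6, taken from the RefSeq genome, and capitals mark the word or its reverse complement.
jp and brwl, chr2L:9567461-9567561: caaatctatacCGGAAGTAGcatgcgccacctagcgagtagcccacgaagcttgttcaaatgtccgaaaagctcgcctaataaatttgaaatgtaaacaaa
C15 and sp3, chr3R:21520297-21520397: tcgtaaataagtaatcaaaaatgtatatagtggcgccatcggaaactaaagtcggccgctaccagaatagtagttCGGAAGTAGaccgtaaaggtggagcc
CG11349 and CG7465, chr3L:4475094-4475194: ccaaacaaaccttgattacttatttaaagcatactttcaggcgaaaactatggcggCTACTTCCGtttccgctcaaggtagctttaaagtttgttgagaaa
Rim and cpo, chr3R:17919182-17919282: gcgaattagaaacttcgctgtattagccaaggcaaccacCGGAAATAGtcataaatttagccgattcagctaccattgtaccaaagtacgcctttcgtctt

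CGGAANTAG lay within 50 bp of the summit in 5 of the 330 peaks, or 1.52% (Wilson 95% interval 0.649% to 3.50%). Of these 5, 4 were among the 25 strongest, where the word was noticed. The word was thus drawn from the peaks in which it is counted, and the shares given here do not test it. It was in 8 of the 4679 comparison candidates, or 0.171%, and in 9 of the 3486 other thresholded peaks, or 0.258%. The stricter word CGGAAGTAG was in 4 intergenic peaks, in 2 comparison candidates and in 2 other thresholded peaks. Among the 25 strongest intergenic peaks 3 held the stricter word, against 1 of the 343 start-site and gene-body peaks that were at least as strong as the weakest of those 25. The looser word was in 4 of the 25 and in 3 of the 343. Since the word was read from the 25 and not from the 343, this contrast was built in and is a description only. The 2 comparison candidates with the stricter word ranked no higher than 24874. On the 6 arms CGGAAGTAG occurs 480 times, of which 95 sites are intergenic and away from start sites. Only 4 of those 95 sites lay within 50 bp of a thresholded summit, so most copies of the word carried no thresholded peak.

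The other 4 printed members held no such word, and are shown for their base composition. They are given with the same length, strand and source, with capitals on the longest run of A and T. The last line is the strongest comparison candidate of the same interval beside chinmo, shown for contrast and picked after the values were known.
Sol1 and Cyp9f2, chr3R:12403090-12403190: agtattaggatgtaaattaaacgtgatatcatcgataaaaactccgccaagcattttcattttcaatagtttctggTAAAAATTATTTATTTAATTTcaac
RFeSP and chinmo, strongest, chr2L:1643444-1643544: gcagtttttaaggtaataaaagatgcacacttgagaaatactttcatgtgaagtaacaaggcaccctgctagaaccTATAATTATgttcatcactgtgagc
RFeSP and chinmo, next strongest, chr2L:1638734-1638834: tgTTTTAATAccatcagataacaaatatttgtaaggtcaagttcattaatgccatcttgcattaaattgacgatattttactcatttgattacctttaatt
ph-d and ph-p, chrX:2124113-2124213: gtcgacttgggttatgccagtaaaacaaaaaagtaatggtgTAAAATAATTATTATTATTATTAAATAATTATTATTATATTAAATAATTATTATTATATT
candidate beside chinmo, chr2L:1646221-1646321: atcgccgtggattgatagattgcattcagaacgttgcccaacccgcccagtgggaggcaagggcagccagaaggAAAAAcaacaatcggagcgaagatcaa

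The GC content of these windows was 25.7% between Sol1 and Cyp9f2, 36.6% and 25.7% beside chinmo, and 15.8% between ph-d and ph-p. The candidate was at 52.5%. The ph-d and ph-p window ended in an uninterrupted A and T run of 60 bases, the longest in any of the 330 windows. The median longest run was 9 bases in the intergenic peaks and 8 in the comparison candidates.

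The strongest intergenic peak lay 761 bp from the start of jp, which encodes junctophilin, a protein that holds the endoplasmic reticulum close to the plasma membrane. Its signal was 1942, and it ranked 4 in the pooled list and 11, 3 and 3 in replicates 1, 2 and 3. It ranked near the top of every list. The next peak, of signal 1058, lay in a short interval of 437 bp between the ends of Sol1 and Cyp9f2, a cytochrome P450 gene, and ranked 61, 34 and 23 in the replicates. The next in strength, of signal 1015, was 581 bp from the start of sp3 and 7533 bp from C15, a homeodomain factor of the developing leg. It ranked 215, 28 and 25, so replicate 1 placed it lower than the other replicates did.

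Polycomb group genes, whose products keep developmental genes silent, flanked some of these strong or repeated sites. A peak of signal 895 lay on 2R between Su(z)2 and CG13323 and ranked 47, 64 and 89. It was 27371 bp from Su(z)2, and the nearest start, at 11974 bp, was that of CG13323. The neighbouring genes ph-d and ph-p, which encode the related Polyhomeotic proteins, had a peak of signal 763 between them that ranked 76, 112 and 140. Psc, the partner of Polyhomeotic in Polycomb repressive complex 1, had 5 peaks on its flanks, with signals from 242 to 325. The strongest of these, of signal 325, ranked 519 and 821 in replicates 1 and 2 and had no candidate summit within 100 bp in replicate 3. It overlapped another of the 5, of signal 264, which ranked 1250, 1173 and 716 in the replicates. The peaks of 324 and 261 also overlapped each other, so the 5 are not separate sites. Of the 21 genes of the Polycomb and Trithorax list, 4 (19.0%) flanked an intergenic peak, and 4 a comparison candidate. Of all 13945 coding genes, 3.23% and 20.01% did. The share of 19.0% counts ph-d and ph-p separately for the same peak. Of the 8 intergenic peaks beside a gene of this list, only 1 had a listed gene as its nearest coding start.

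Other strong peaks had signals of 972 between Aldh-III, an aldehyde dehydrogenase gene, and wech, and 676 between blw, which encodes a subunit of ATP synthase, and the mitotic cyclin gene CycB. A peak of 657 lay between Rim, which encodes an active-zone protein, and cpo, an RNA-binding protein gene of the nervous system, with cpo the nearer. A peak of 650 lay between CG34342, whose start was the nearest, and Lkr, the leucokinin receptor gene. A peak of 644 lay 187 bp from the end of CG8519 and 4169 bp from ple, which encodes tyrosine hydroxylase. The last of these ranked 668, 131 and 80, much lower in replicate 1 than in replicate 3. The peak beside foxo, the forkhead factor of insulin signalling, had a signal of 592, lay 3318 bp from the start of the gene and ranked 150, 180 and 287. Further down the 25 strongest came peaks beside stck (525), Lamtor5 (520), Zasp52 (469), zfh2 (463) and Cpr76Ba (454). The peak of 520 lay 595 bp from the end of prage and 4709 bp from the start of Lamtor5. That of 469 lay 120 bp from the end of Zasp52 and 13617 bp from its start.

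**Figure D1:**
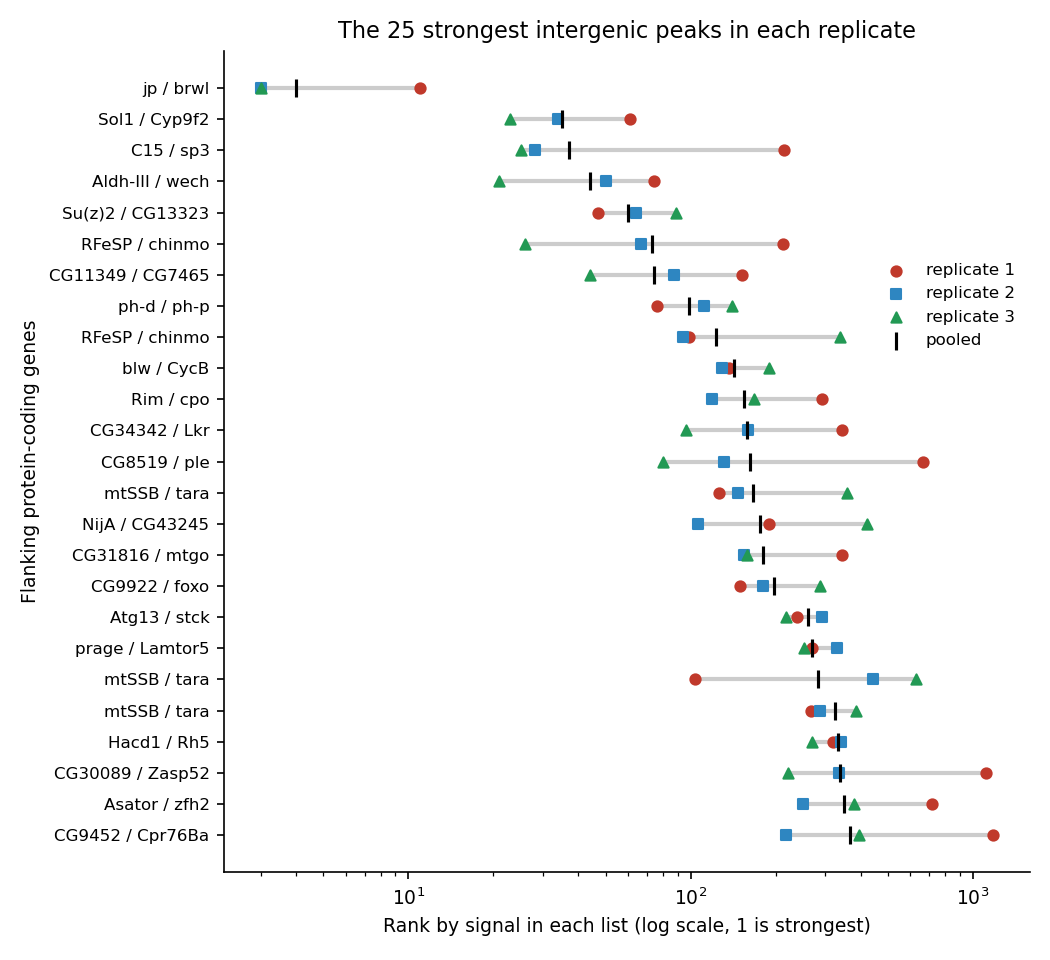
Rank by signal (log scale, 1 is strongest) of the 25 strongest intergenic peaks in each replicate's own list (coloured points) and in the pooled list (black ticks), labelled by the flanking protein-coding genes. The peak beside jp is at 11 or better in every replicate, and those beside Zasp52 and Cpr76Ba are past 1000 in replicate 1.

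Over all 330 peaks the median signal was 184, between 135 and 1942. The median was 190 in thresholded peaks within genes and 197 in those at start sites. Of the 330 intergenic peaks, 69 (20.9%) were among the 954 strongest thresholded peaks and 105 (31.8%) among the 954 weakest. Of start-site peaks, 27.7% and 22.6% were in these groups, and of peaks within genes 21.6% and 27.3%. Since signal chose the thresholded list, this order was also read in each replicate's own 3816 strongest peaks. There the median rank of intergenic summits was 2198, 2005 and 2005 in replicates 1, 2 and 3, against 1754, 1803 and 1798 for summits at start sites and 2094, 2015 and 2087 for summits within genes. Intergenic summits ranked below those at start sites in 3 of 3 replicates, by a mean of 285 places (SD 138, n = 3, exact sign-flip p = 0.25, two-sided). Against summits within genes they had the lower place in replicate 1 and the higher in replicates 2 and 3.

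Each replicate held most of the peaks. A summit among a replicate's own 3816 strongest lay within 100 bp of 68.8%, 72.7% and 60.6% of the intergenic peaks in replicates 1, 2 and 3. The same share of the other thresholded peaks was 68.2%, 75.6% and 69.1%. The intergenic share was the lower in replicates 2 and 3 and slightly the higher in replicate 1, and the mean difference was -3.61 percentage points (SD 4.59, n = 3, exact sign-flip p = 0.5, two-sided). Of the 330 peaks, 118 recurred among the strongest of all 3 replicates, 112 of 2, 89 of 1 and 11 of 0. The pooled signal is made from the same replicates, so recurrence and signal are tied by construction: 76 of the 83 strongest peaks recurred in all 3 replicates, and 0 of the 83 weakest.

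**Figure D2:**
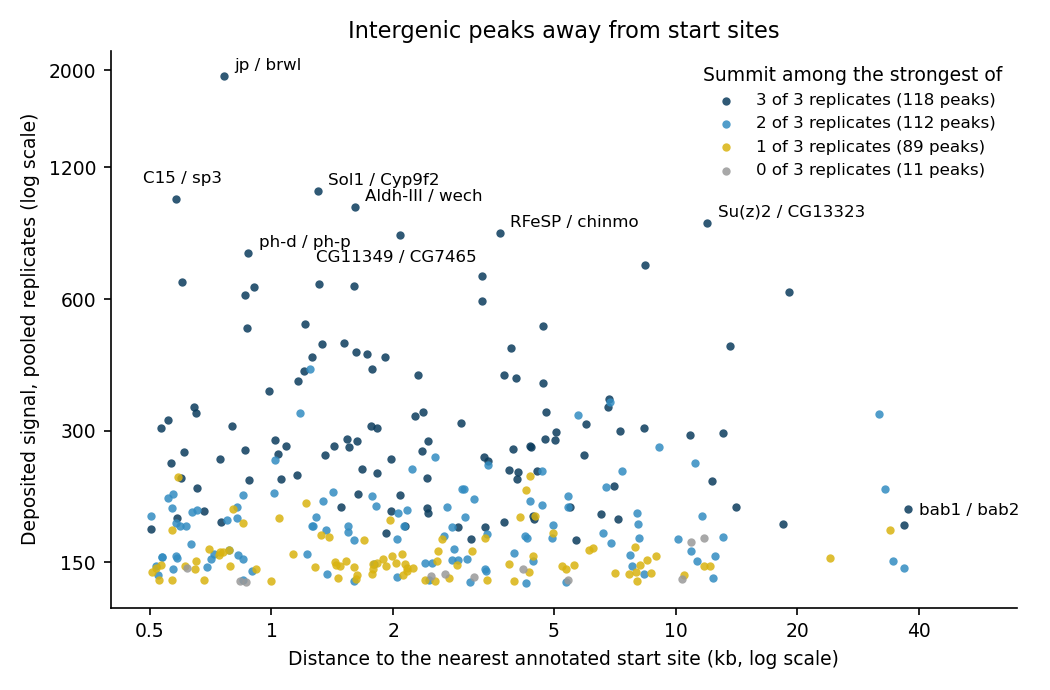
Deposited signal of each of the 330 intergenic peaks (log scale) against the distance to the nearest annotated start site in kb (log scale), coloured by the number of replicates with a summit among their own strongest peaks within 100 bp. The 25 strongest peaks are all among the 118 that recurred in 3 of 3 replicates.

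Many of the peaks came in groups. The 330 peaks lay in 252 intervals between genes, of which 201 held 1 peak, 38 held 2 and 13 held 3 or more. Those 13 intervals held 53 peaks. Neighbouring peaks of an interval were a median of 1517 bp apart, and 22 peaks had another of the 330 within 250 bp, so such pairs share part of their interval and are not independent.

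The largest group lay beside chinmo, a BTB zinc-finger gene that sets the identity of early-born neurons. Counted between the coding genes RFeSP and chinmo there were 10 peaks over 33494 bp on 2L, of which 7 lay in a single interval of 20910 bp between noncoding RNA genes. That interval also held 15 comparison candidates. The strongest peak, of signal 848, was 7764 bp upstream of chinmo and ranked 212, 67 and 26 in the replicates. A second, of signal 717, was 12474 bp upstream and ranked 99, 94 and 337. The peak nearest to chinmo was 1775 bp away, with a signal of 414 and ranks of 471, 365 and 538. These 3 peaks were thus at rank 538 or better in every replicate. The weakest of the 10, of signal 147, ranked 28721 in replicate 1 and 2822 in replicate 2 and had no summit in replicate 3. In all, 6 of the 10 recurred among the strongest peaks of all 3 replicates, although neither chinmo nor RFeSP had a thresholded summit within 500 bp of a start site.

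A group of 8 peaks lay between mtSSB, which encodes a mitochondrial DNA-binding protein, and tara, a gene of the Trithorax group that the list above does not hold, on 3R. Its strongest peak, of signal 638, was 1144 bp from tara and ranked 126, 147 and 359. Peaks of 514, 476 and 410 followed between 3128 and 3770 bp from tara. The nearest start to each of these 4 peaks was that of a noncoding RNA gene, at 872 to 1514 bp. All 4 recurred in every replicate, and the other 4, of signals between 137 and 187, did not. Both tara and mtSSB had a thresholded summit within 500 bp of a start site. For tara this was a different start from the one used for the distances above. Within 500 bp of that one lay a candidate of signal 56.0, which did not pass the threshold.

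The interval of 75047 bp between NijA, which encodes a ninjurin, and CG43245 on 3L held 6 peaks and 36 comparison candidates. Its strongest, of signal 623, was 19129 bp from the start of CG43245 and ranked 190, 106 and 422. It was the only one of the 6 to recur among the strongest of all 3 replicates. The others, of signals between 145 and 327.9, each fell outside the 3816 strongest of at least 1 replicate.

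Other groups stood on both sides of Rh5, a rhodopsin gene of photoreceptors, with 4 peaks toward Hacd1 and 3 toward Wdr81. The strongest, of signal 472, was 1332 bp from the start of Rh5 and ranked 320, 340 and 270, and 402 and 389 were reached on the opposite side. Between CG7484 and Crtc, which encodes a coactivator of CREB, all 3 peaks (signals 272 to 287) recurred in every replicate. The nearest start to each of the 3 was that of CG7484, at 1554 to 4740 bp. By contrast, of the 6 peaks between scyl, a gene for an inhibitor of TOR signalling, and Dyro, 0 did, and their signals ran from 136 to 219. Hairy (hry), a pair-rule gene, had 5 peaks on its flanks, of which 1 recurred in all 3 replicates. Counted between coding genes, 17 pairs of genes held 3 or more peaks, 74 peaks in all, and in 5 of the 17 pairs at least 1 of the genes had a thresholded promoter summit.

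**Figure D3:**
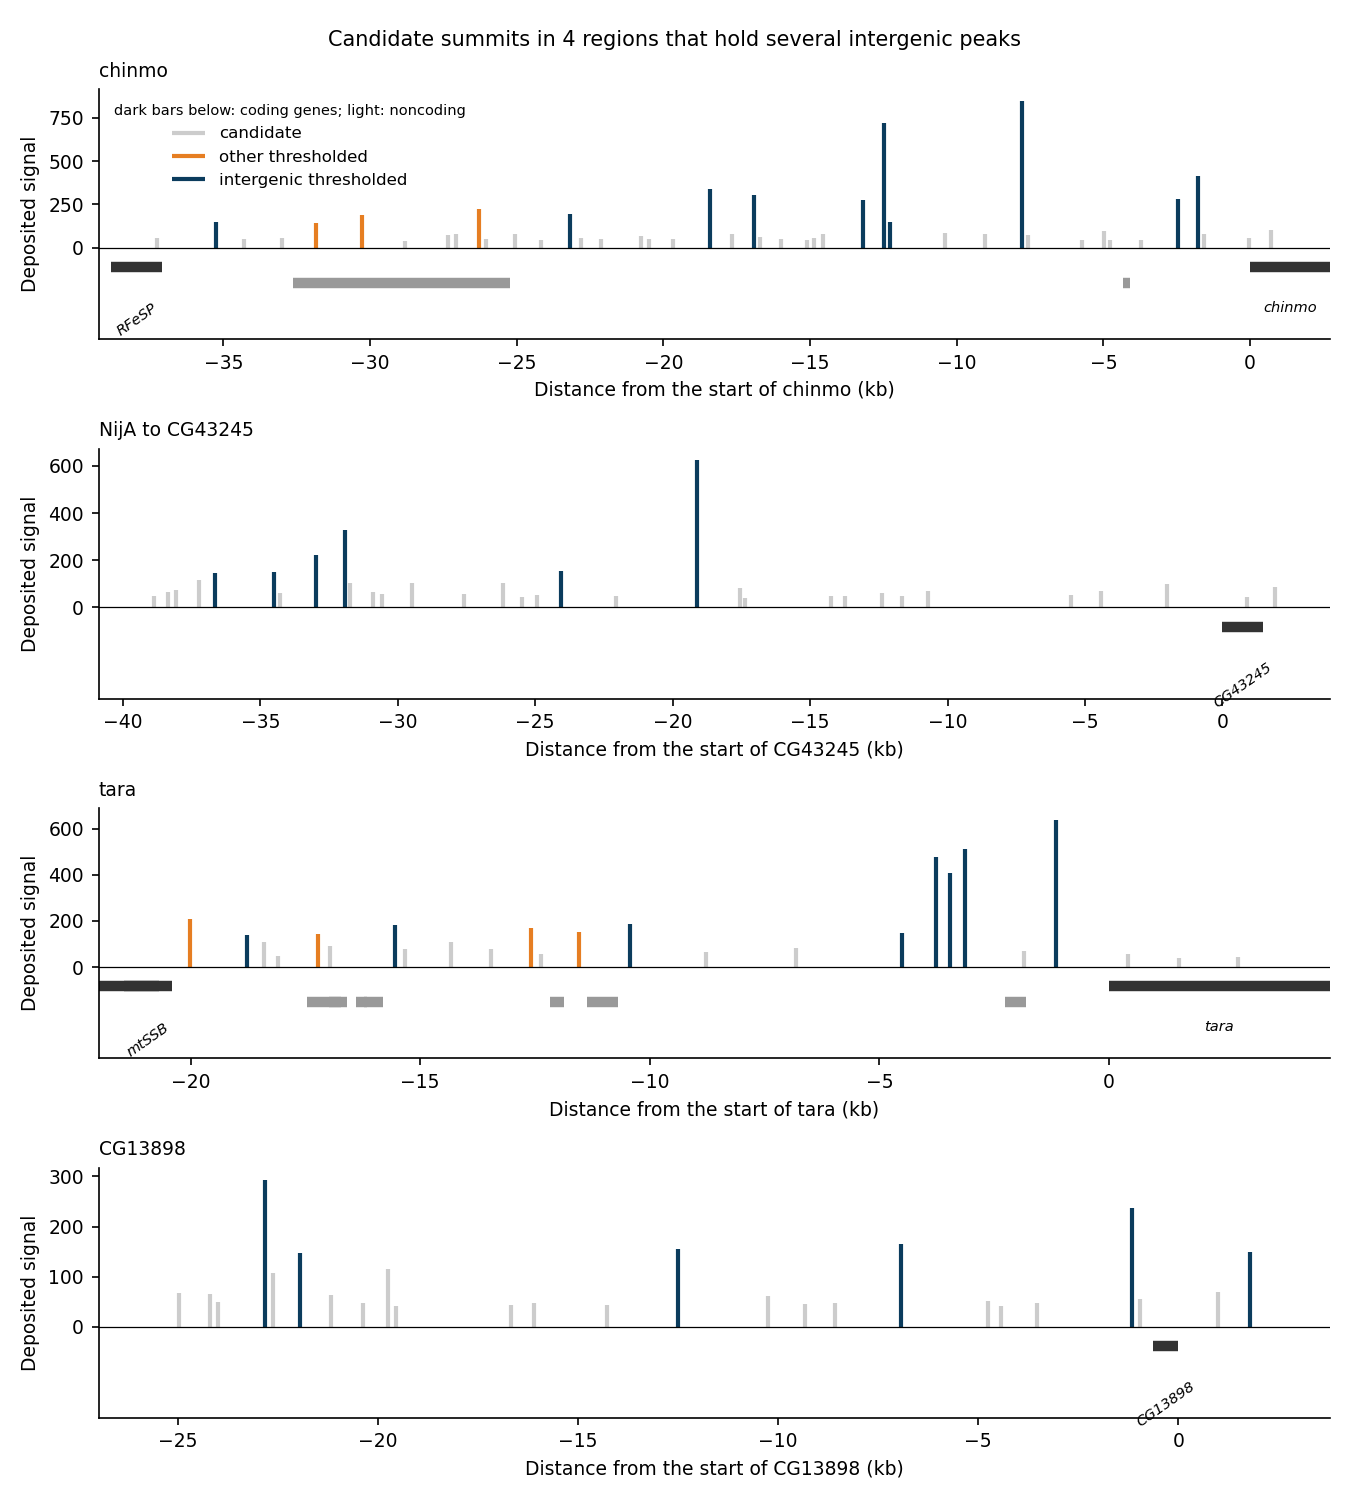
Deposited signal of pooled candidate summits against the distance in kb from the start of the named gene in 4 regions with several intergenic peaks (dark blue, intergenic thresholded, orange, other thresholded, grey, candidates below the threshold), with genes as bars below (dark for coding, light for noncoding). The group at chinmo reaches 848 at 7764 bp from the gene, and that at tara 638 at 1144 bp.

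Thresholded peaks of any class lay near one another. Another thresholded summit was 500 to 10000 bp away for 203 of the 330 intergenic peaks, or 61.5% (Wilson 95% interval 56.2% to 66.6%). The share was 30.9% of comparison candidates, 65.4% of thresholded peaks at start sites and 73.4% of those within genes. In the replicates' own lists, 59.4%, 60.2% and 66.3% of the intergenic summits among the strongest had another of the strongest at this distance, against 29.4%, 36.1% and 31.1% of the remaining intergenic summits. The groups did not overlap, and the mean difference was 29.8 percentage points (n = 3, higher in 3 of 3, exact sign-flip p = 0.25, two-sided).

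The distance to the nearest start site ran from 503 to 37690 bp, with a median of 2163 bp and quartiles of 1064 and 4679 bp. The median in the comparison candidates was 3290 bp. By distance, 77 peaks lay 500 to 1000 bp from a start, 75 at 1000 to 2000 bp, 103 at 2000 to 5000 bp and 75 farther away. The share of intergenic candidates that were thresholded was 11.4% in the nearest of these bins and 4.42% in the farthest. Within the replicates, the median distance of intergenic summits among the strongest was 2359, 2220 and 1874 bp, against 3528, 2969 and 3187 bp in the remaining ones. It was shorter in 3 of 3 replicates, with a mean difference of -1077 bp (SD 293, n = 3, exact sign-flip p = 0.25, two-sided). Set against the 3816 candidates next in rank, the mean difference was -267 bp, again shorter in 3 of 3.

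The interval between genes that held a peak was also shorter, with a median of 7744 bp against 11796 bp in the comparison. The shortest was 142 bp and the longest 245765 bp. In the replicates the medians were 8437, 8302 and 6242 bp among the strongest and 12466, 11054 and 11195 bp in the remaining candidates (mean difference -3911 bp, SD 1105, n = 3, exact sign-flip p = 0.25, two-sided). Against the candidates directly below, the mean difference was -1262 bp. Since a short interval caps the distance to a start site, the measures are not independent.

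The 5 peaks farthest from any start site were not strong. The farthest lay 37690 bp from the start of bab2, in the interval between bab1 and bab2, which encode BTB factors of the leg and abdomen, but 843 bp from the other end of bab2, and its signal was 198. It ranked 936, 3362 and 2441, within the strongest 3816 of every replicate. The next lay on 2R in the interval between Pld and jing, 36770 bp from a start (signal 182). A peak 33834 bp from the start of vvl, a POU-domain gene, had a signal of 178 and ranked 7901, 1606 and 4209. The remaining 2 were the weak peaks of the group between NijA and CG43245.

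Around the summit the intergenic peaks were rich in A and T. Mean GC content within 50 bp of the summit was 36.2% (SD 9.97 over peaks) in the 330 peaks and 41.4% (SD 9.68) in the comparison candidates. It was below 30% in 97 peaks, or 29.4%, and in 13.5% of the comparison candidates. In 21-bp windows it fell from 42.0% at 400 to 500 bp from the summit to 34.2% at the summit. The comparison candidates had 41.3% and 41.2%. The dip was not found in intergenic peaks alone: at the summit thresholded peaks at start sites had 38.0% and those within genes 35.5%. In the replicates' own lists GC content was 37.2%, 35.2% and 39.0% in intergenic summits among the strongest and 42.9%, 39.6% and 43.1% in the remaining ones. It was lower in 3 of 3 replicates, with a mean difference of -4.73 percentage points (SD 0.869, n = 3, exact sign-flip p = 0.25, two-sided). The groups did not overlap. Against the candidates directly below, the difference was -2.59 percentage points.

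**Figure D4:**
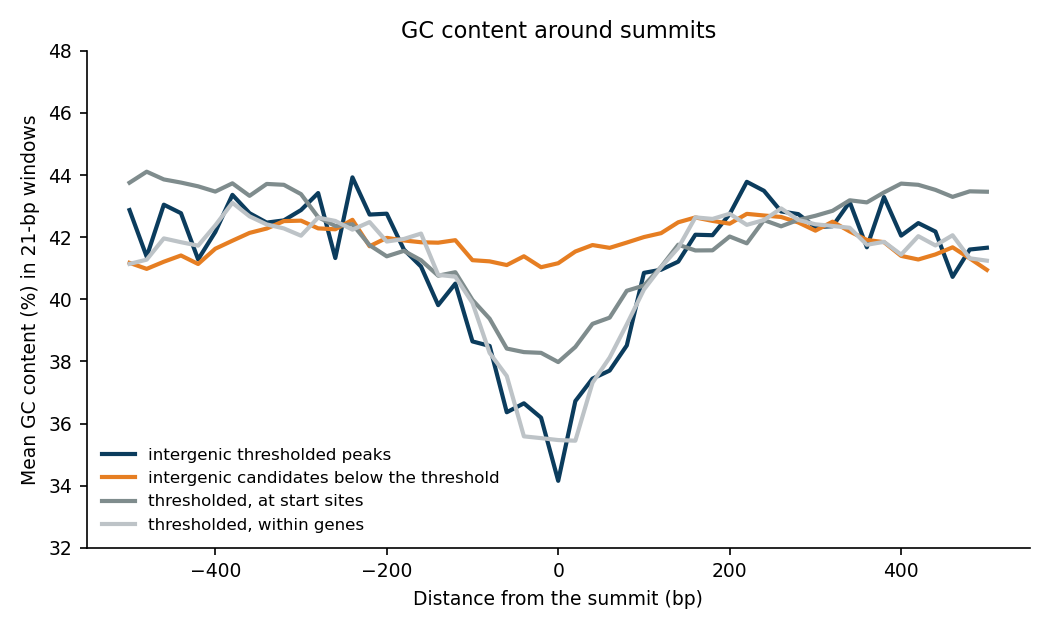
Mean GC content in 21-bp windows every 20 bp against the distance from the summit in bp, for the intergenic peaks, the comparison candidates and the thresholded peaks at start sites and within genes. The intergenic peaks reach 34.2% at the summit, and the comparison candidates are at 41.2% there.

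Inside the set GC content was 36.3%, 35.6%, 36.3% and 36.8% in 4 groups of 82 or 83 peaks from the strongest to the weakest (SD over peaks between 9.51 and 10.6). By distance to a start it was 36.9%, 34.1%, 37.2% and 36.3% from the nearest bin to the farthest, and 39.95%, 41.7%, 41.3% and 41.8% in the comparison candidates.

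**Figure D5:**
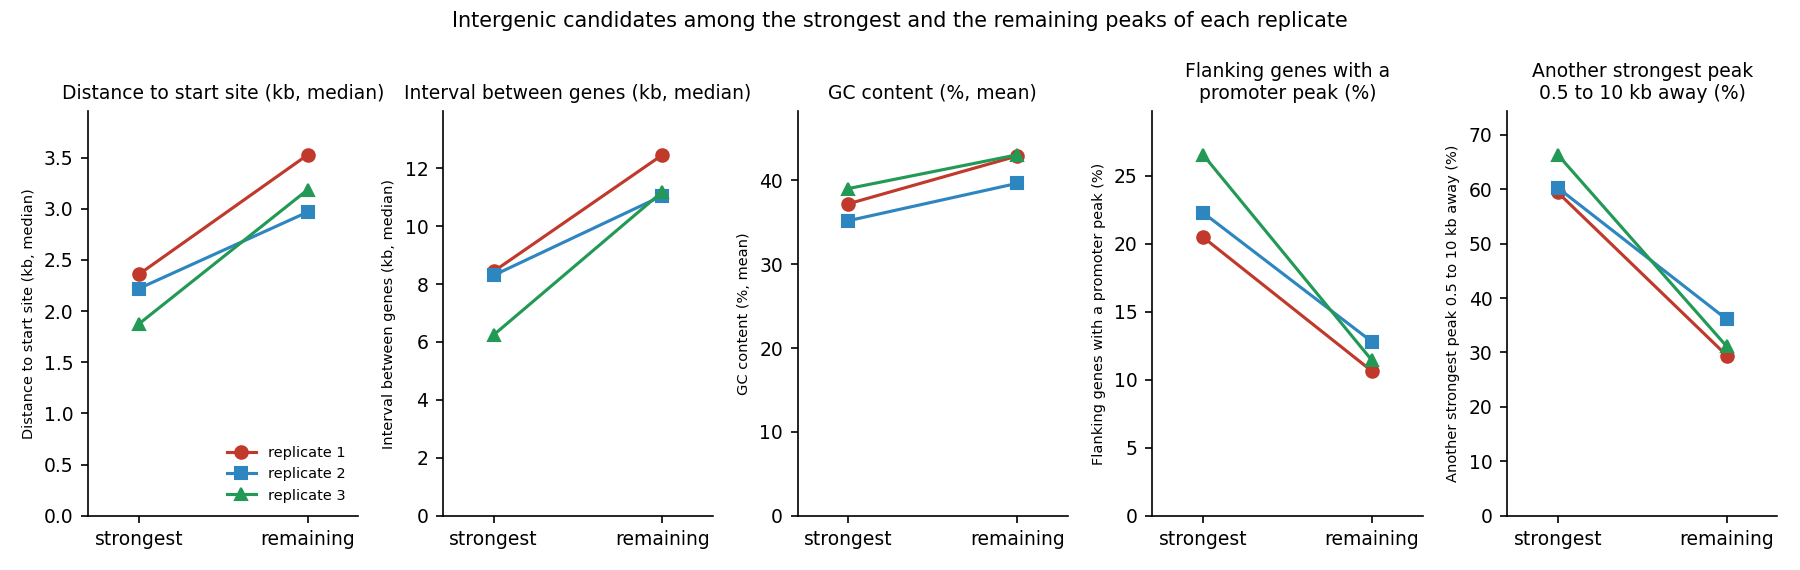
Values over intergenic summits among the 3816 strongest peaks of each replicate and over its remaining intergenic summits, 1 line per replicate and axes from 0. Distance, interval length and GC content are lower among the strongest in all 3 replicates, and the shares of flanking genes with a promoter peak and of summits with a strong neighbour are higher.

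Words of known DNA-binding proteins were searched within 50 bp of each summit, on either strand. Of the 26 words, 14 (53.8%) had shares in intergenic summits among the strongest that did not overlap over the replicates with those in the remaining ones, 7 higher and 7 lower. With this share of words apart, a single word apart is no result by itself. AGGAC, bound by the BTB factor Tramtrack, was in 6.81%, 3.98% and 6.19% of the strongest and in 12.2%, 8.05% and 10.8% of the remaining intergenic summits (mean difference -4.68 percentage points, exact sign-flip p = 0.25, adjusted over the 26 words 0.382). The E-box CANNTG was in 32.2%, 33.9% and 37.8% against 42.5%, 39.1% and 41.0%. TAATTA, a core of homeodomain factors, was in 8.99%, 10.7% and 9.62% against 6.65%, 7.81% and 7.10%. None of the 26 words passed an adjusted threshold of 0.05, which 3 replicates cannot reach, and 17 had the same direction in 3 of 3 (unadjusted p = 0.25 each, exact).

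GC content moved with these shares, and its part in them was not tested. Where the window had under 30% GC, CANNTG was in 26.8% of the 97 peaks and 26.1% of the comparison candidates. At 30 to 40% it was in 37.2% and 38.2%, at 40 to 50% in 42.2% and 45.7%, and at 50% or more in 10 of 29 peaks (34.5%) and 44.5%. AGGAC was in 5 of 97 peaks (5.15%) against 2.37% below 30% GC, and in 3 of 83 (3.61%) against 214 of 1784 at 40 to 50%. It was in 4.96% against 6.47% at 30 to 40% and in 2 of 29 (6.90%) against 17.7% at 50% or more. The shares were thus close at some GC levels and apart at others. Over all GC levels it was in 4.85% of the 330 peaks, in 10.2% of the comparison candidates and in 3.64% of the other thresholded peaks. GAGAG, bound by GAGA factor, which is also a BTB protein, was in 10.0% of the peaks, 11.5% of comparison candidates and 13.8% of other thresholded peaks. TATCGATA, the DRE of promoters, was in 0 of the 330 peaks, in 0.214% of the comparison candidates and in 1.52% of the other thresholded peaks. The word CGATA lies within TATCGATA, and CACGTG is a form of CANNTG, so their counts overlap. CCGGAAG, the word of ETS factors among the 26, shares the bases CGGAAG with the word CGGAAGTAG noticed above. It was in 1.82% of the peaks, 0.663% of comparison candidates and 0.803% of other thresholded peaks. The window beside jp holds both words, so these counts overlap as well and do not test either word.

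Among words of 8 bases ranked on 2L, 2R and 4 by the excess over the comparison candidates, AACAAATA came first, in 10 of 124 peaks (8.06%) against 1.71%. On 3L, 3R and X, which did not enter the ranking, it was in 10 of 206 peaks (4.85%) against 1.82%. TAATAATA, the next, was in 2.43% against 1.82% there. A and T make up 7 of the 8 bases of AACAAATA, and GC content differed alongside.

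The peaks were flanked by 450 protein-coding genes, 3.23% of the 13945. Of these genes 102, or 22.7% (Wilson 95% interval 19.0% to 26.8%), also had a thresholded summit within 500 bp of a start site. The share was 12.1% of the 2458 coding genes that flanked a comparison candidate and no intergenic peak, and 17% of all coding genes. The replicates' own lists gave 20.5%, 22.3% and 26.5% of genes flanking the strongest intergenic summits, against 10.6%, 12.8% and 11.4% of genes that flanked the remaining ones alone. The share was higher in 3 of 3 replicates, by 11.5 percentage points (n = 3, exact sign-flip p = 0.25, two-sided). Over the peaks, 202 had a promoter summit at neither flanking coding gene, 94 at 1 and 34 at both. Those 34 were 10.3% of the intergenic peaks, and the same share of comparison candidates was 2.67%. With start sites counted within 250 bp the share of flanking genes was 15.8% (12.7% to 19.4%) and that of all coding genes 13.5%, which lies inside this interval. Within 1000 bp, where some of the 330 peaks themselves count as promoter summits, the shares were 34.7% and 19.7%.

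Among 21 gene lists, developmental regulators often flanked an intergenic peak, but they also flanked comparison candidates. In the BTB list 6 of 16 genes (37.5%) flanked a peak and 9 of 16 (56.2%) a comparison candidate, where all coding genes had 3.23% and 20.01%. The 6 included chinmo, mod(mdg4), an insulator gene, and the pair bab1 and bab2. The genes bab1 and bab2 flanked the same peak, as did lola and psq, so the 6 genes are not independent. Of the 13 peaks beside a gene of this list, 10 were beside chinmo. Of the GATA and forkhead list 6 of 14 flanked a peak and 12 of 14 a comparison candidate. The 6 were all forkhead genes, and no GATA gene of the list flanked a peak. Among the 6 were foxo, bin, the visceral mesoderm factor (signal 443), and slp1 and slp2, which flanked the same peak (277). Of 21 genes of Notch, EGF, JAK-STAT and JNK feedback, 7 flanked a peak and 10 a comparison candidate. The 7 included aop, the repressor Yan (288), and sty, the Sprouty inhibitor (276). Also among the 7, upd1 and upd3 flanked the same peak. The peak of 276 lay 18500 bp from sty and 2570 bp from Ids, whose start was the nearest. The neurogenesis list had 5 of 22 beside a peak and 10 of 22 beside a comparison candidate. The 5 included chinmo, pros (296), which encodes Prospero of neural progenitors, SoxN and D. The peak of 296 lay 59263 bp from pros and 22355 bp from CG5214, whose start was the nearest coding start.

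Hox genes had 1 of 8, abd-A, with a peak of signal 449 that ranked 1955, 266 and 229 in the replicates. That peak lay 8341 bp from abd-A, and its nearest start, at 1727 bp, was that of a noncoding RNA gene. Gap, terminal and head genes had 3 of 14 against 11 of 14 beside a comparison candidate, pair-rule and segment polarity genes 3 of 21 against 17, and T-box and homeodomain genes 3 of 23 against 17. The dorsoventral and mesoderm list had 2 of 26, tracheal and epithelial genes 3 of 12, ecdysone and nuclear receptor genes 2 of 19, and Wingless and Dpp feedback 1 of 17. The insulator list had 1 of 18, heat shock genes 1 of 18, muscle and cytoskeleton genes 4 of 21, and histone genes 1 of 118. The large families had 1 of 93 ribosomal protein genes, 6 of 179 odorant, gustatory and ionotropic receptor genes (3.35%) and 4 of 118 cuticle protein genes (3.39%), the last 2 shares close to the 3.23% of all coding genes. Immune effectors had 0 of 18, which allows a share of up to 17.6% (Wilson 95%). Genes beside long intervals can flank more candidates of either kind, so the shares are descriptions.

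By chromosome arm, 98 of the peaks were on 3L, 77 on 3R, 63 on 2L, 56 on 2R, 31 on X and 5 on 4. Intergenic peaks made up 12.2% of the thresholded peaks of 3L (Wilson 95% interval 10.2% to 14.7%), 8.94% on 2L, 8.32% on 3R, 7.19% on 2R and 5.30% on X (3.76% to 7.42%). Per megabase of DNA outside genes there were 17.6 peaks on chromosome 4, 9.84 on 3L and 5.18 on X. The share of X was 9.39% of the intergenic peaks and 11.03% of the comparison candidates. The small chromosome 4 had 5 of its 21 thresholded peaks between genes, or 23.8% (10.6% to 45.1%), led by a peak of signal 463 that was 3920 bp from zfh2, a zinc-finger homeodomain gene. On X the strongest after ph-d and ph-p lay beside Lamtor5 (520) and Atf3, a bZIP factor (442).

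The position of the peaks relative to gene direction was close to that of the comparison candidates. Of the 330 peaks 27.6% lay between divergent genes, 50% between genes of like direction and 22.4% between convergent genes, against 25.1%, 51.1% and 23.7%. The nearest gene edge was a 3' end in 48.5% and 51.9%. A noncoding RNA gene flanked 47.3% of the peaks and 47.7% of the comparison candidates. The nearest coding start lay downstream of the summit, that is, the peak was upstream of the gene, in 63.6% and 63.0%. Annotated transposable elements overlapped 4 of the 330 peaks (1.21%) and 1.77% of the comparison candidates.

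At the edges of the choice, the 3 weakest of the 330 had signals of 134.7 to 135.3, and the 3 strongest comparison candidates 133.4 to 133.8. The 3 nearest to a start site, at 503, 504 and 505 bp, lay beside CG3348, Fatp3 and a noncoding RNA gene and had signals of 179, 191 and 142. Just inside 500 bp, intergenic summits at 494, 497 and 500 bp lay beside Mkp3, by and CG43066 and had signals of 434, 489 and 226. The 3 outside the choice by distance were thus all stronger than the 3 inside it, while the signal edge is set by the threshold itself. In all, 874 thresholded summits outside genes lay within 500 bp of a start.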

How the data were processed

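Peak lists of 3 biological replicates, numbered in the labels, were read on dm6. Per the labels and the text descriptions deposited with the samples, the lists are candidates per replicate, candidates called on the pooled replicates, and peaks thresholded for reproducibility; the candidate lists are described as peaks and background. The authors deposited per peak a signal, called against a control and of no stated unit, and a q-value as its −log10, which is tied among strong peaks and was not used to rank. For aligner, caller and cutoff nothing is stated in the sources used here. The thresholded peaks were tested to be the 3816 pooled candidates of highest signal. Lists on dm3 were not used. The depth is unknown, and Wilson 95% intervals express counting error only.

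Summits were placed on gene models of Ensembl release 115 (BDGP6.54), whose arm lengths match dm6; sequences came from the RefSeq genome of the same assembly, with positions counted from 1. Within each replicate's list, intergenic summits among its 3816 strongest peaks were compared with its remaining intergenic summits by exact two-sided sign-flip tests over the 3 replicates, with Benjamini-Hochberg adjustment over 26 motif words. Functions were tested on simulated data. Named genes flank the 25 strongest peaks, intervals with 3 or more peaks, the 5 peaks farthest from a start, the 5 strongest per arm, or are up to 4 members of a list beside the strongest peaks. Members, lists and words were chosen with earlier results of these data known. The search for CGGAANTAG, the count of strong neighbours and the replicate tests of promoter peaks and of median ranks were added after seeing the values. Among the list symbols, 1 did not match. A few named items and sequences are not reported here. Alternatives were other start distances, coding genes only, the 1908 strongest, nearer candidates, other windows and leaving out a replicate. Tools were Python 3.11.15, numpy 2.4.6, pandas 2.3.3, scipy 1.17.1 and matplotlib 3.10.9.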

Additional observations from a re-analysis of the deposited data

How the results depend on the processing

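The distance to a start site, the interval length and the GC content were lower among the strongest in every replicate kept, under each alternative tried. Without 1 replicate, the mean difference was between -1241 and -958.5 bp for distance, -4491 and -3390.5 bp for interval length, and -5.08 and -4.24 percentage points for GC content. The number of peaks fell to 178 with a start distance of over 2000 bp and to 145 among the 1908 strongest thresholded peaks, by construction. The recurrence difference turned to 0.212 percentage points (exact sign-flip p = 1) when 2 times as many peaks were taken per replicate; the cause was not tested. Leaving out a replicate gave -5.71 to -1.16. The 14 motif words whose shares did not overlap became 8 against the candidates directly below, 9 within 25 bp and 9 within 100 bp of the summit, and 17 to 19 without a replicate. Flanking genes with a promoter peak were 15.8% within 250 bp, where all coding genes had 13.5%, and 34.7% within 1000 bp, where they had 19.7%. Peaks beside a listed gene were 80 by either flank and 46 by the nearest coding start alone. No paired analysis was possible because the samples form 1 group and none can be paired across groups; the tests set classes of peaks against each other within a replicate. With 3 replicates and unknown depth, no test here can pass 0.05, and a peak missing from a replicate may lie below its list's end.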
